A study of Mus musculus with 20 samples.

Results

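The Nr4a orphan nuclear receptors are 3 genes, Nr4a1, Nr4a2 and Nr4a3, also known as Nur77, Nurr1 and Nor1. They were followed on all 20 arrays of a study of fear memory in mice. The members were chosen by name, as those transcript clusters, or groups of probes summarised to 1 value, that are annotated with a single symbol of the family. There was 1 such cluster for each gene, 3 of 28853 on the array, of which 21789 carry 1 symbol. Amygdala and hippocampus were taken from WT mice and from DKO mice, in which Adcy1 and Adcy8, the genes of the Ca2+-stimulated adenylyl cyclases AC1 and AC8, are both disrupted. All were C57BL/6 males of 2 mo, killed untreated (baseline) or at 0 hr, 1 hr, 48 hr or 1 wk after conditioned fear (CF) training, a 5 min trial with 1 foot shock of 0.7 mA for 2 s. The 1 wk mice went through a 5 min test trial before they were killed, so that this time point follows a second exposure. RNA of 5 to 10 mice was pooled on each array, and each combination of region, genotype and time had 1 array.

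Several features limit the groups as a model. WT mice were C57Bl/6 animals and not littermates of the DKO mice. The DKO mice, whose breeding pairs received doxycycline and who were themselves given it up to weaning, had either no transgene or 1 of the pair tetop-AC8 and CaMKII-tTA. A difference between genotypes therefore cannot be told apart from these differences in origin. The tissue was taken as bilateral micropunches, and in such bulk samples fewer cells of a type and less RNA per cell cannot be told apart. The study's methods do not state whether both regions came from the same mice, and with the time points or groups as replicates, p-values measure the spread between pooled arrays.

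Nr4a receptors are transcription factors of the nuclear receptor superfamily that act without an established natural ligand, so the amount made is taken as a main control of their activity. They bind the NBRE, a single receptor half-site with adenines before it, and Nr4a1 and Nr4a2 also act as partners of retinoid X receptors. All 3 are immediate early genes, which neuronal activity and cAMP switch on through CREB bound to their promoters, and in mouse hippocampus they have been linked to the consolidation of contextual memory. Nr4a2 is in addition required for midbrain dopamine neurons and marks the claustrum and the deepest cortical layer.

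The windows around the start sites of the 3 genes are shown because they hold half-sites of the CRE, the element that CREB binds. They were taken from RefSeq (GRCm38.p6), run from 250 bases before to 50 bases after the start, and are written 5′ to 3′ on the strand of the gene. Capitals mark the CRE half-site, CGTCA or its reverse complement TGACG. The window of Nr4a1 is chr15:101266596-101266895 on the plus strand, that of Nr4a2 chr2:57123954-57124253 on the minus strand and that of Nr4a3 chr4:48045055-48045354 on the plus strand.
Nr4a1: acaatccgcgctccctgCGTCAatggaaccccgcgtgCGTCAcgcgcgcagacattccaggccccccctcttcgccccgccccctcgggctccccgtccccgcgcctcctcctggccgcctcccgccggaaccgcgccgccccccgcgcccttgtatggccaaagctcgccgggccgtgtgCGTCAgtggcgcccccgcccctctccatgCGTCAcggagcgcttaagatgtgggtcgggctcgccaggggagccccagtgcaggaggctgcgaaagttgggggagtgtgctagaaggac
Nr4a2: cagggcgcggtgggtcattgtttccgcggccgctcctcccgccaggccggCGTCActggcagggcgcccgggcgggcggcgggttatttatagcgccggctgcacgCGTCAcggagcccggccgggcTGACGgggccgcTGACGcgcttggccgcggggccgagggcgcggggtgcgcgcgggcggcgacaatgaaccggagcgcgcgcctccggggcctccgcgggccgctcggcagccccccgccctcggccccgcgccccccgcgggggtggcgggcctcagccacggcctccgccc
Nr4a3: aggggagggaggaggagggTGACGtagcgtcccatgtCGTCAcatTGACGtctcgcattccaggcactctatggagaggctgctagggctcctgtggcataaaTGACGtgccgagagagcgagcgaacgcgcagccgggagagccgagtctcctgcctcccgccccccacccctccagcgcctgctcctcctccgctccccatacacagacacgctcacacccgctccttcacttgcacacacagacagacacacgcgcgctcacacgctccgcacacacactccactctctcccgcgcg

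Each window held 4 CRE half-sites, all upstream of the start. In Nr4a1 they began at bases -233, -213, -69 and -40 and all lay in the same orientation. In Nr4a2 they began at -200, -144, -123 and -111, with 2 in each orientation, and in Nr4a3 at -231, -213, -205 and -147, with 1 on the strand of the gene and 3 on the other. Of the 32851 RefSeq windows of this length, 20.8% held at least 1 such half-site on either strand and 0.231% held 4 or more. The full CRE, TGACGTCA, was in none of the 3 windows and in 1.79% of all windows. The NBRE, AAAGGTCA, and the CArG box of serum response factor were also in none of the 3, against 1.51% and 1.63% of all. The TATA motif TATAAA occurred once, in Nr4a2 on the opposite strand, and in 13.6% of all windows. No 2 matches overlapped in these windows. Their content of G and C was 72.3% (Nr4a1), 81.7% (Nr4a2) and 64.7% (Nr4a3), and the shares over all windows were not matched for it. The start site of the Nr4a1 window lies 12944 bases inside the span of the RefSeq gene and that of Nr4a3 lies 227 bases inside. A match is a description of the letters and not of a bound site.

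**Figure D1:**
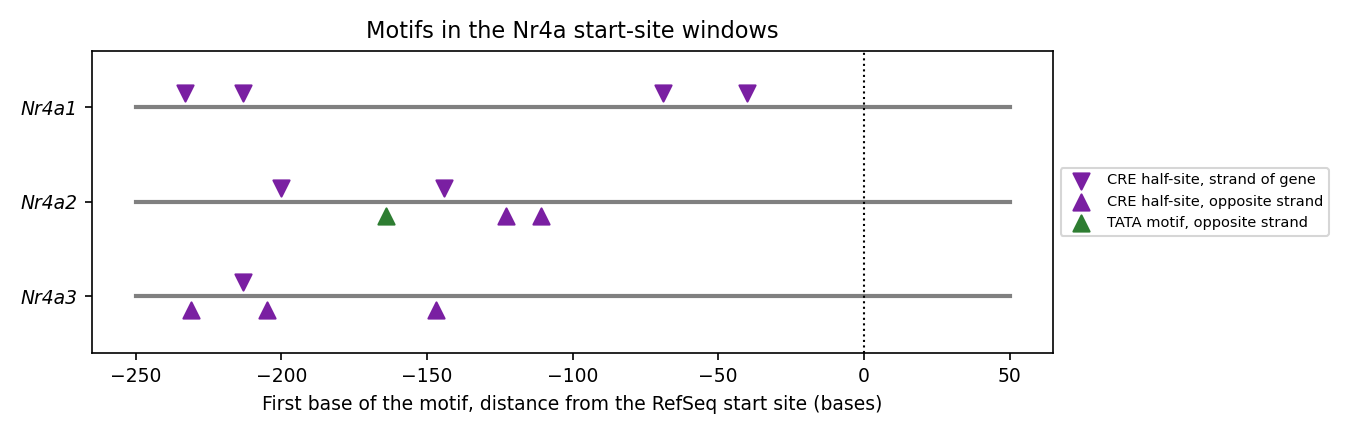
Position of CRE half-sites (purple) and of the TATA motif (green) in the window from 250 bases before to 50 bases after the RefSeq start site (dotted line, 0 on the axis) of each gene. Markers above a line lie on the strand of the gene and those below on the opposite strand, and each gene has 4 half-sites upstream of the start.

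Pairs of arrays correlated at 0.983 to 0.997 over all clusters. The mean over all clusters was 6.78 and 6.80 on the DKO arrays of 48 hr (amygdala and hippocampus) and 6.83 to 6.92 on the other 18. This difference touches the 48 hr results below. It also touches the DKO values of 1 hr against the other times, whose reference includes these arrays. Adcy1 and Adcy8 were lower on every DKO array than on every WT array of the same region. Levels are given as RMA log2 values, and the number of arrays limits their precision. Differences were tested with limma with Benjamini-Hochberg adjustment over all clusters, and the limit was an adjusted p of 0.1 for the genotype effect and of 0.05 elsewhere. Over 29 comparisons and 3 genes no member passed, although 17 of the 87 tests had an unadjusted p under 0.05, 10 of them for Nr4a1, 6 for Nr4a2 and 1 for Nr4a3. Of all 28853 clusters, 291 to 8180 had such a p in a single comparison. The comparisons share arrays and partly the same contrasts, so these tests are not independent. The test that the paper's methods name for the genotype effect, with the same adjustment, also called none.

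Nr4a2 had the widest range of the members over the 20 arrays, from 7.92 to 9.11. From baseline over 0 hr, 1 hr and 48 hr to 1 wk, it read 8.66, 8.38, 8.87, 8.51 and 8.38 in amygdala of WT mice. The DKO amygdala read 8.24, 8.49, 9.11, 8.13 and 8.32 in the same order. The 1 hr array was thus the highest of both amygdala groups, and the DKO value was the highest of all 20 arrays. Hippocampus of WT mice read 8.15, 8.49, 8.54, 8.45 and 8.45, against 8.48, 8.21, 8.72, 7.92 and 8.26 in DKO mice. The 1 hr array was again the highest in each, so that 1 hr was the peak in 4 of 4 groups, although in the WT hippocampus it stood only slightly above 3 other arrays. After a further quantile normalization it was the peak in 3 of 4, with 0 hr slightly higher in the WT hippocampus.

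Set against the mean of the other 4 time points, Nr4a2 at 1 hr was higher by 0.38 (WT) and 0.82 (DKO) in amygdala and by 0.16 (WT) and 0.50 (DKO) in hippocampus. Over the 4 groups the difference was 0.47 (standard error 0.099, n = 4 arrays at 1 hr), or 1.38-fold with a 95% interval of 1.20 to 1.59. Its adjusted p by limma was 0.172, where 5 of all clusters, 0.0173%, passed. By p it held place 25 and by size place 9 among the 28853 clusters. Against baseline alone the difference was 0.43 (standard error 0.125, adjusted p by limma = 0.635), in a comparison that called 0.0243% of clusters. With arrays weighted by their quality the difference from the other times was 0.48 and passed, with an adjusted p by limma of 0.0431. That setting called 60 clusters in this contrast, beside 5 without weights.

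The difference was above 0 in both regions. It came to 0.60 (standard error 0.134, adjusted p by limma = 0.887) for amygdala arrays alone. For hippocampal arrays alone it was 0.33 (standard error 0.134, adjusted p by limma = 0.976), and in either region 0% of clusters passed, with 1044 and 1370 at an unadjusted p under 0.05. The difference between the regions was itself -0.27 (hippocampus minus amygdala, 95% interval -0.72 to 0.17, adjusted p by limma = 1), in a test that called 0% of clusters with 368 under 0.05 unadjusted. The interval holds an equal peak, one that is smaller in the hippocampus and, up to 0.17, one that is larger there.

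**Figure D2:**
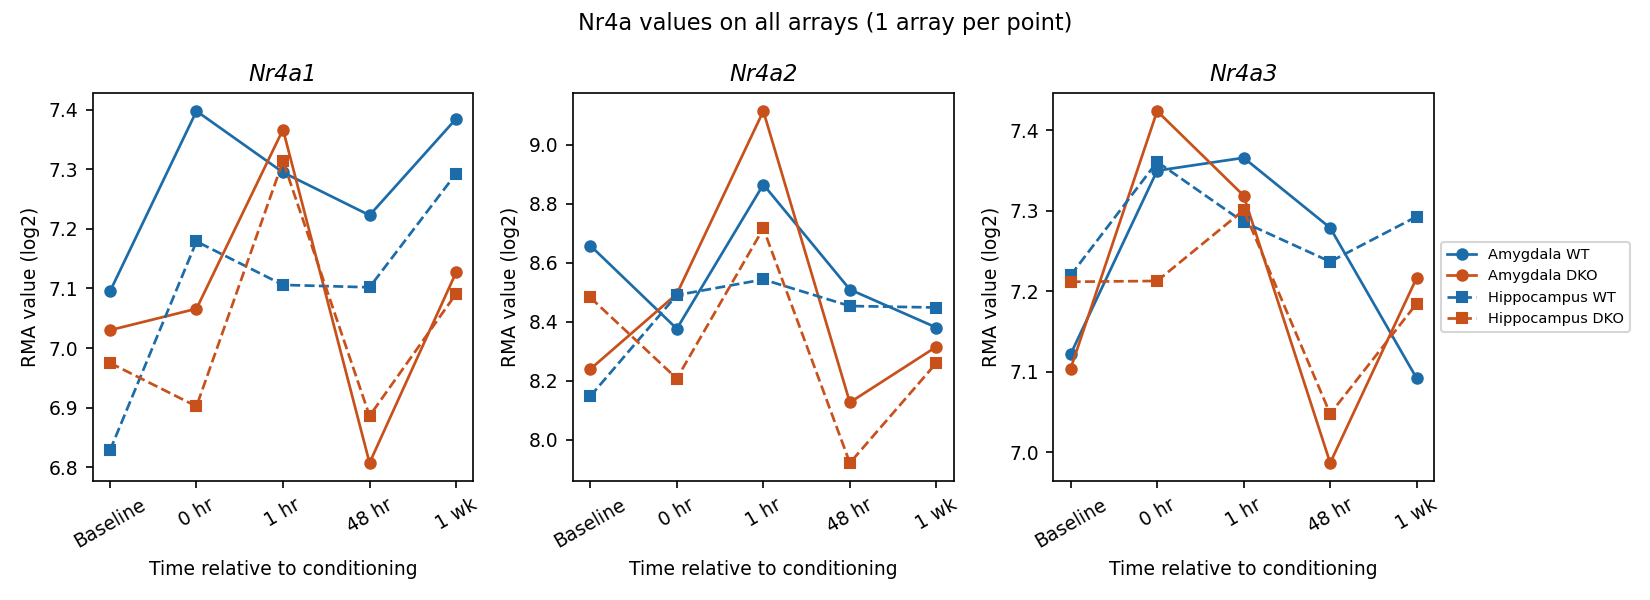
RMA value (log2) of Nr4a1, Nr4a2 and Nr4a3 at baseline, 0 hr, 1 hr, 48 hr and 1 wk, with 1 array per point, blue for WT and orange for DKO, circles for the amygdala and squares for the hippocampus. Nr4a2 is highest at 1 hr in all 4 groups, and all 3 genes are lowest at 48 hr in both DKO groups.

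Changes from the baseline array of the same region and genotype rest on 1 array each and carry no test. Of the 48 such changes of the family 1 reached 1.5-fold, where 1.15% of all clusters did so over the 16 array pairs. It was Nr4a2 in the DKO amygdala at 1 hr, 1.83-fold above baseline, in a pair where 0.575% of clusters passed. Set against the mean of the WT and DKO baseline arrays the same array stood higher by 0.67 rather than 0.88 on the log2 scale, still past 1.5-fold, the DKO baseline being the lower of the 2 (8.24 against 8.66).

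For Nr4a1 the order of the time points was another one on the WT than on the DKO arrays, in a difference that missed the limit when tested (below). Amygdala of WT mice read 7.09, 7.40, 7.29, 7.22 and 7.38 from baseline to 1 wk, and hippocampus 6.83, 7.18, 7.11, 7.10 and 7.29. Baseline was the lowest array of both WT groups and all 8 later arrays lay above it, by 0.13 to 0.46, with the highest value at 0 hr in the amygdala and at 1 wk, after the test trial, in the hippocampus. DKO mice read 7.03, 7.07, 7.37, 6.81 and 7.13 in amygdala and 6.97, 6.90, 7.31, 6.89 and 7.09 in hippocampus. There the single peak was at 1 hr in both regions, and the other arrays lay on both sides of baseline.

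At 1 hr Nr4a1 stood 0.36 and 0.35 above the mean of the other times in the DKO amygdala and hippocampus, and 0.02 and 0.01 above it in the WT groups. The difference between genotypes in this contrast was 0.34 (DKO minus WT, standard error 0.098, 95% interval 0.13 to 0.55). Its adjusted p by limma was 0.458, in a test that called 0.00347% of clusters and in which the median of all clusters was 0.07. In this test the regions served as replicates, with 1 array each per genotype and time. Leaving out any 1 array kept this difference between 0.32 and 0.36, although that cannot remove a shift shared by several arrays. Over all other settings, with median centring among them, the lowest value of this difference was 0.245. For Nr4a2 the same difference was 0.39 (standard error 0.172, adjusted p by limma = 0.504), and it ran more widely, from 0.23 without the DKO amygdala array of 1 hr to 0.55 without the DKO hippocampus array of 1 hr. For Nr4a3 it was 0.06 (standard error 0.11, adjusted p by limma = 0.883). Against baseline rather than the other times, the changes of Nr4a1 at 1 hr were close in both genotypes, 0.20 and 0.28 in WT and 0.34 in each DKO region. The genotype difference in that change was 0.10 (adjusted p by limma = 1). It was larger in size, and below 0, at the times that form the reference. At 0 hr it was -0.35 (adjusted p by limma = 0.923) and at 1 wk -0.27 (adjusted p by limma = 0.272), with 48 hr given below. The tests at 0 hr and 1 wk called 0 clusters, with 1472 and 5152 under 0.05 unadjusted.

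Over the 4 groups Nr4a1 stood above baseline by 0.29 for 1 hr (standard error 0.09, adjusted p by limma = 0.658), 0.24 for 1 wk, 0.15 for 0 hr and 0.02 for 48 hr, the last 3 with an adjusted p by limma of 1. The comparisons at 0 hr and at 1 wk each called 0.00347% of clusters, and that at 48 hr called 0%, with 1036 at an unadjusted p under 0.05. Choroid plexus markers, a sign of ventricular tissue in a punch, were also read against baseline. All 8 lay below it at each later time, with medians of -0.60, -0.40, -0.69 and -0.39 and none called, and their part in the changes from baseline was not tested. Against the other times Nr4a1 at 1 hr differed by 0.18 (95% interval 0.04 to 0.33, adjusted p by limma = 0.47).

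Nr4a3 had the narrowest range over the 20 arrays, from 6.99 to 7.42. Amygdala read 7.12, 7.35, 7.37, 7.28 and 7.09 (WT) and 7.10, 7.42, 7.32, 6.99 and 7.22 (DKO), in the order of time. Hippocampus read 7.22, 7.36, 7.29, 7.24 and 7.29 (WT) and 7.21, 7.21, 7.30, 7.05 and 7.18 (DKO). The highest array was that of 0 hr in 2 groups and that of 1 hr in the other 2, so that the early arrays stood above baseline without a common peak. Over the 4 groups Nr4a3 was 0.17 above baseline at 0 hr (standard error 0.074, adjusted p by limma = 1) and 0.15 at 1 hr (standard error 0.074, adjusted p by limma = 0.81). Nr4a2, in contrast, was only 0.01 above baseline at 0 hr, with a 95% interval of -0.25 to 0.27.

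**Figure D3:**
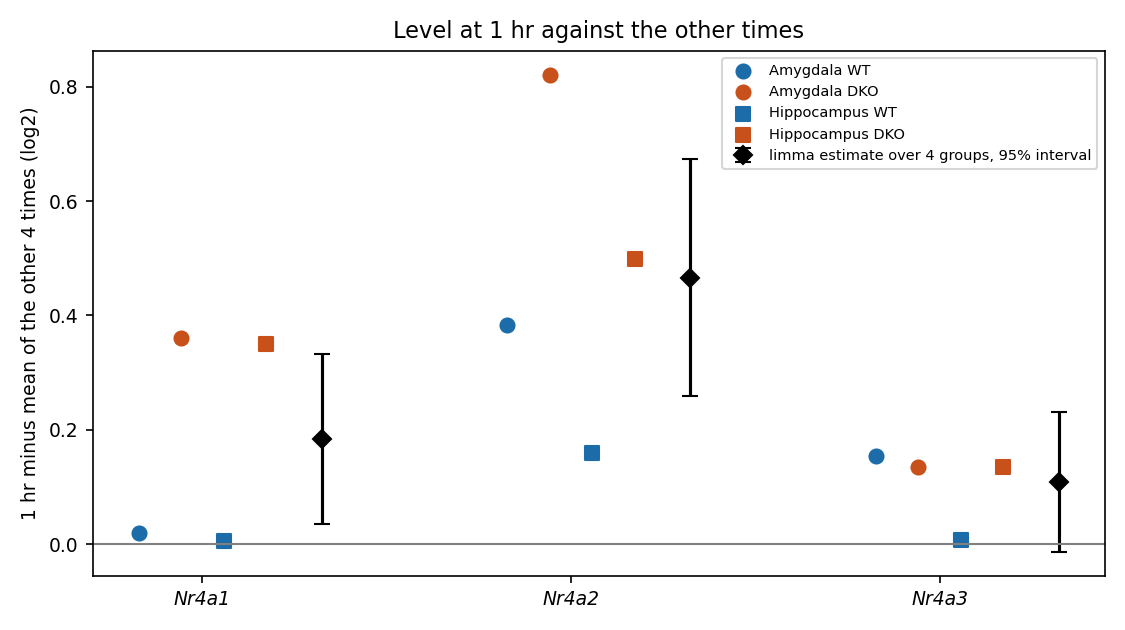
Level at 1 hr minus the mean of the other 4 time points (log2) for each member in each group of region and genotype (coloured points, 1 array against 4), with the limma estimate over the 4 groups and its 95% interval (black). On the values as deposited, the DKO points of Nr4a1, 0.36 and 0.35, stand apart from the WT points near 0. The 4 points of Nr4a2 run from 0.16 to 0.82.

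At 48 hr in DKO mice all 3 genes were at their lowest, in 6 of 6 series of 5 arrays, with changes from baseline of -0.22 and -0.09 for Nr4a1, -0.11 and -0.56 for Nr4a2, and -0.12 and -0.16 for Nr4a3 (amygdala and hippocampus). In WT mice the changes of Nr4a1 were 0.13 and 0.27 and those of Nr4a3 were 0.16 and 0.02, while Nr4a2 lay at -0.15 and 0.31. The difference between genotypes was -0.36 for Nr4a1 (standard error 0.124, adjusted p by limma = 0.331), -0.42 for Nr4a2 (standard error 0.218, adjusted p by limma = 0.41) and -0.23 for Nr4a3 (standard error 0.139, adjusted p by limma = 0.471). This test called 0% of clusters, with 3767 under 0.05 unadjusted, and its median over all clusters was -0.15. The DKO arrays of 48 hr were low as a whole, with a median change from baseline over all clusters of -0.13 in the amygdala and -0.09 in the hippocampus. When each array was centred on its median, the members were lowest at 48 hr in 3 of the 6 DKO series, and the changes became -0.10 and 0.03 for Nr4a1, 0.01 and -0.44 for Nr4a2, and 0.01 and -0.05 for Nr4a3. The WT changes of Nr4a2 were then -0.26 and 0.27. The genotype differences shrank to -0.16 for Nr4a1, -0.22 for Nr4a2 and -0.03 for Nr4a3 (adjusted p by limma = 0.956, 0.961 and 0.993).

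Genotypes were compared with the 5 time points of each as replicates. In the amygdala Nr4a1 averaged 7.28 ± 0.13 (SD, n = 5 arrays) in WT and 7.08 ± 0.20 in DKO mice, Nr4a2 8.56 ± 0.21 and 8.46 ± 0.39, and Nr4a3 7.24 ± 0.13 and 7.21 ± 0.17. The ranges of the genotypes overlapped for every member. The differences, DKO minus WT, were -0.20 for Nr4a1 (adjusted p by limma = 0.646, exact permutation p = 0.103, two-sided), -0.10 for Nr4a2 (adjusted p by limma = 0.803) and -0.03 for Nr4a3 (adjusted p by limma = 0.903). In this comparison 0.097% of all clusters passed.

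In the hippocampus the averages were 7.10 ± 0.17 and 7.03 ± 0.18 for Nr4a1, 8.42 ± 0.15 and 8.32 ± 0.30 for Nr4a2, and 7.28 ± 0.06 and 7.19 ± 0.09 for Nr4a3, in WT and DKO mice. The differences were -0.07 (adjusted p by limma = 0.777), -0.10 (adjusted p by limma = 0.745) and -0.09 (adjusted p by limma = 0.559), with 0.118% of clusters called. All 6 differences were below 0 and none passed, and their intervals in fold ran from 0.74 at the lowest to 1.17 at the highest, both for Nr4a2 in the amygdala. Over clusters with a mean above the median, as the members have, the median difference was -0.08 in the amygdala and 0.02 in the hippocampus. Single arrays moved the differences of the members. Without the DKO amygdala array of 1 hr the difference of Nr4a2 was -0.26 and without that of 48 hr -0.02, and for Nr4a1 in the hippocampus it was -0.14 without the DKO array of 1 hr and -0.02 without the WT array of 1 wk. Markers of neighbouring tissue also differed between the genotypes. In the amygdala 9 of 10 striatal markers lay lower in DKO mice (median -0.37, none called), with a mean level of 8.59 to 9.11 in WT and 8.41 to 8.60 in DKO mice, and all 8 choroid plexus markers lay higher (median 0.22, none called). In the hippocampus all 6 thalamic markers lay higher in DKO mice (median 0.61), with 1 called, Vav3, and a mean level of 7.62 to 8.19 in WT and 8.16 to 8.67 in DKO mice. Their part in the genotype differences of the family was not tested. The difference between the regions in the genotype effect was 0.13, 0.00 and -0.06 (hippocampus minus amygdala, adjusted p by limma = 0.582, 0.998 and 0.77) in a test that called 0.0104% of clusters.

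**Figure D4:**
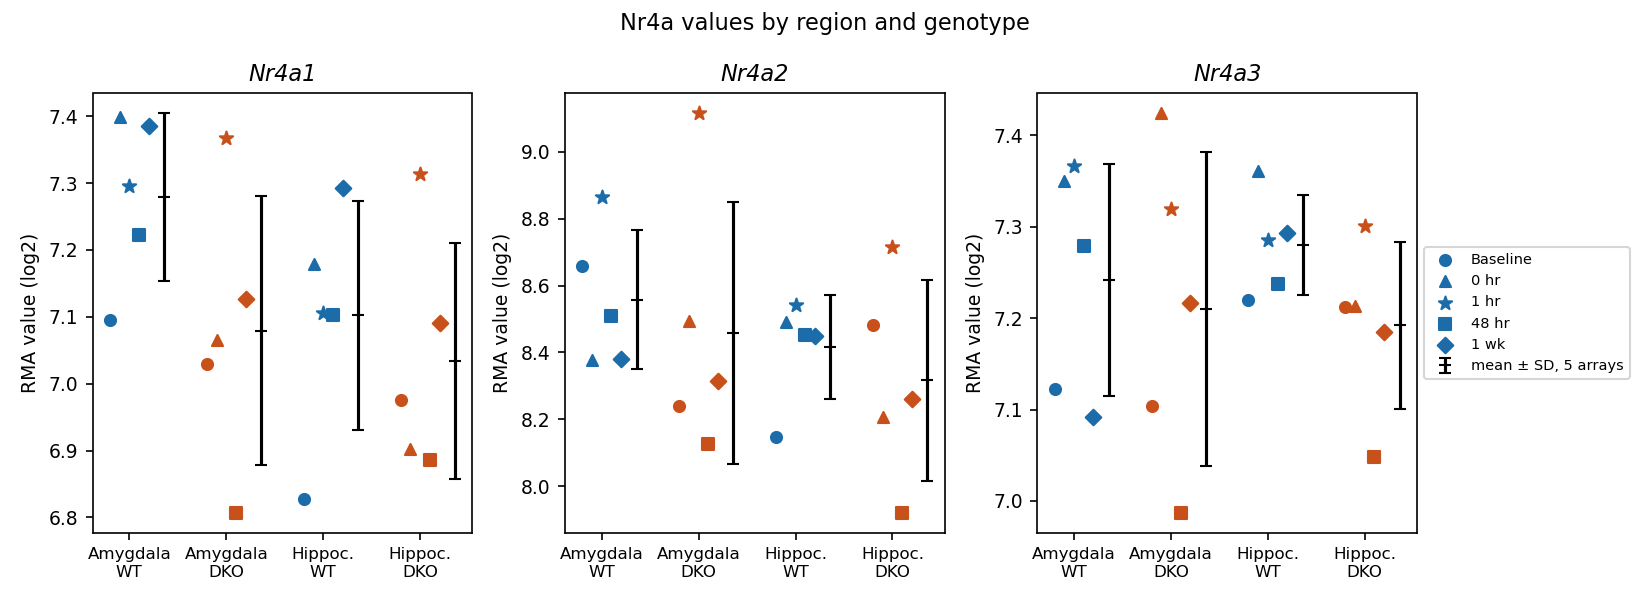
RMA value (log2) of each member by region and genotype, with 5 arrays per group marked by time point (a star for 1 hr, a square for 48 hr) and the mean ± SD in black. The groups overlap for all 3 genes, and in both DKO groups of Nr4a1 and Nr4a2 the star is the highest point and the square the lowest.

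Each member was compared between the regions. Nr4a1 ran from 6.81 over a median of 7.17 to 7.40 on the 10 amygdala arrays and from 6.83 over 7.10 to 7.31 in the hippocampus. It was lower in the hippocampus by 0.11 with genotype and time as a block (standard error 0.043, adjusted p by limma = 0.094), in 9 of 10 pairs. Of all clusters 17.3% passed this comparison. Nr4a1 passed, with a difference of -0.13 and an adjusted p by limma of 0.0408, once the 48 hr DKO array of either region was left out, and its exact permutation p over the 10 pairs was 0.00977, unadjusted and two-sided. Nr4a2 ran from 8.13 over 8.44 to 9.11 in the amygdala and from 7.92 over 8.45 to 8.72 in the hippocampus. Its difference was -0.14 (standard error 0.068, adjusted p by limma = 0.191), lower in the hippocampus in 7 of 10 pairs. Nr4a3 differed by 0.01 (95% interval -0.09 to 0.11, adjusted p by limma = 0.921), with 5 of 10 pairs each way.

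Region markers were checked next. Counts between the regions are of markers that passed the limit, in a comparison that called 17.3% of all clusters. All 6 markers of the dentate gyrus were called higher in the hippocampus, and 7 of 10 amygdala markers were called higher in the amygdala. So were 9 of 10 striatal markers and 5 of 7 markers of the claustrum and layer 6b, a population that Nr4a2 itself marks. Of the 6 CA field markers 3 were called higher in the hippocampus and 1, Wfs1, was called lower. Also called higher there were 5 of 6 thalamic, 4 of 4 oligodendrocyte, 3 of 7 endothelial and 1 of 10 amygdala markers. By direction alone 7 of 7 endothelial and 4 of 6 CA field markers lay higher there, and 0 of 10 striatal and 1 of 10 amygdala markers. The lists were also read at 1 hr. The mean level of the 7 claustrum and layer 6b markers was above that of the other times by 0.13, 0.07, 0.02 and 0.03 (WT and DKO amygdala, WT and DKO hippocampus), and 5 of 7 genes lay above 0 over the 4 groups with none called. The 4 oligodendrocyte markers were above the other times by 0.11, 0.32, 0.12 and 0.17, and all 4 lay above 0 with none called, the largest being the myelin gene Mobp at 0.39 (adjusted p by limma = 0.201). The 6 markers of the CA fields differed by -0.07, 0.27, 0.10 and 0.15. The 10 striatal markers differed by 0.32, -0.09, -0.13 and -0.02. Choroid plexus markers varied most among the tissue lists, by -0.59, 0.37, 0.60 and -0.52. Dentate gyrus markers differed by -0.24, 0.065, 0.07 and 0.09, and thalamic ones by 0.12, -0.03, -0.06 and -0.22. Amygdala markers differed by 0.19, -0.19, -0.105 and 0.03. Endothelial markers differed by -0.03, 0.06, -0.11 and 0.11, and microglial ones by 0.03, 0.04, -0.08 and 0.08. The oligodendrocyte and CA field lists, like Nr4a2, had their largest 1 hr difference in the DKO amygdala. So had the lists of immediate early genes (0.22), chaperone genes (0.16) and upstream genes (0.10) described below. The reference in that group includes its 48 hr array, whose mean over all clusters, 6.78, was the lowest of the 20 arrays. On it the chaperone list read 8.66 and the upstream list 8.03. The upstream list at 1 hr, 8.337, was not above its 1 wk level, 8.343. The part of the 48 hr array in these differences was not tested. The part of the tissue lists in the 1 hr values of the family was not tested.

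The family was set beside other immediate early genes. All 32 genes of the list were measured. At 1 hr against the other times 26 of them lay above 0, with a median of 0.10. The median was -0.01 over all clusters and 0.05 over clusters with a mean above the median. Of the list 1 gene passed, Egr2, a zinc finger factor, higher by 0.96 (standard error 0.102, adjusted p by limma = 0.000354). With the members included, Nr4a2 was second of 35 genes by size after Egr2, ahead of Tiparp, a mono-ADP-ribosyltransferase induced by activity (0.39, adjusted p by limma = 0.202), and the synaptic scaffold gene Homer1 (0.31, adjusted p by limma = 0.19). Nr4a1 was eighth and Nr4a3 at place 19, beside Fos at 0.15 and Arc, the cytoskeletal memory gene, at 0.26. At 0 hr the order was another one. The list had a median of 0.16 above baseline with 30 of 32 genes above 0 and none called at an adjusted p of 0.05, led by the phosphatase gene Dusp1 at 0.36, while Nr4a3, Nr4a1 and Nr4a2 held places 16, 19 and 33 of 35. All genes of the list share the baseline arrays with the members.

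**Figure D5:**
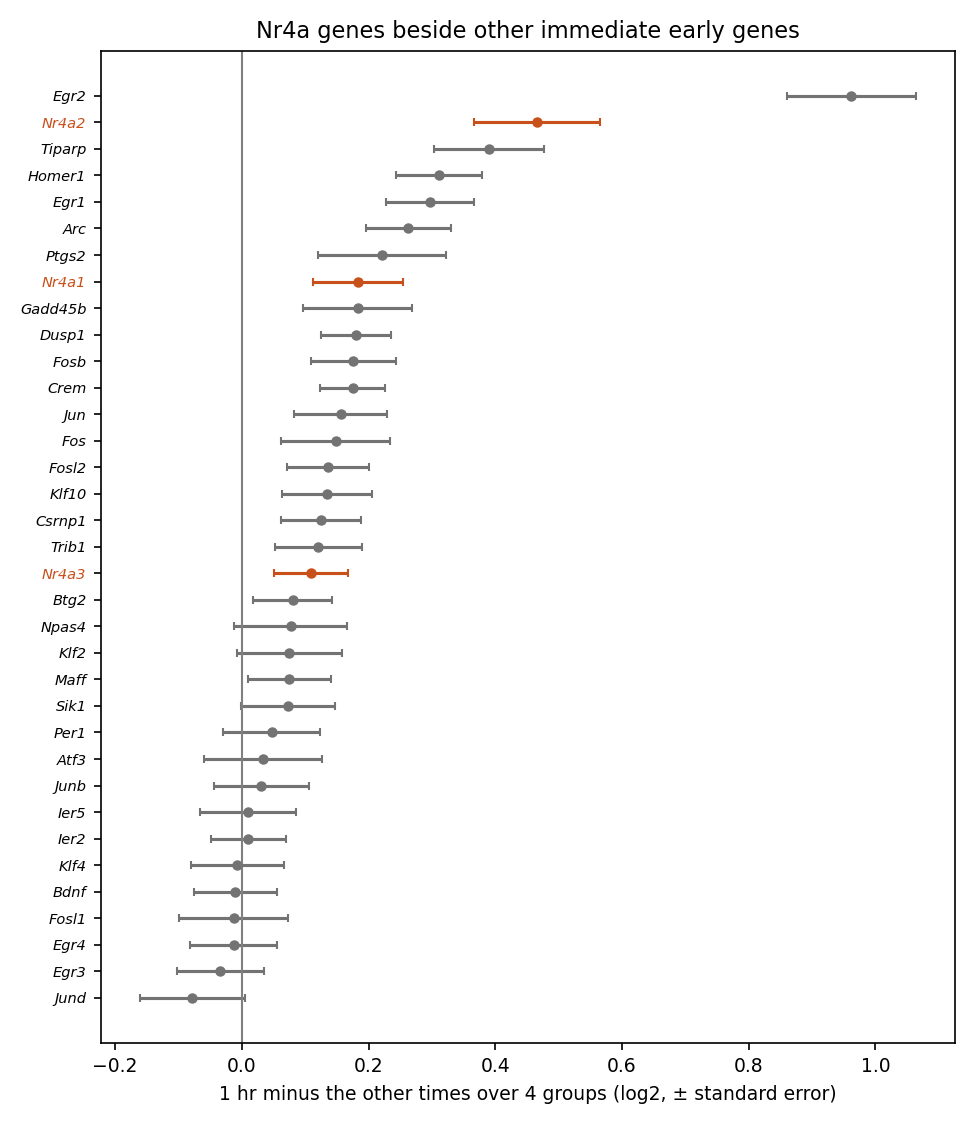
Difference between 1 hr and the other times over the 4 groups (log2, point with standard error) for 32 immediate early genes (grey) and the 3 members (orange), ordered by size. Egr2 leads at 0.96 and Nr4a2 follows at 0.47, while Nr4a1 and Nr4a3 lie at 0.18 and 0.11 among most of the list.

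The genes upstream of the family showed no call in time. Of 24 listed kinases, CREB coactivators, MEF2 factors and deacetylases 20 were measured. At 1 hr against the other times 15 lay above 0 with a median of 0.09, beside 0.05 over clusters with a mean above the median. The 2 largest were Ep300, a histone acetyltransferase that CREB recruits, at 0.17 (adjusted p by limma = 0.484) and Creb1 itself, the factor that binds the CRE, at 0.17 (adjusted p by limma = 0.47). Between genotypes 2 of the 20 passed, Adcy1 and Adcy8 themselves, both lower in DKO mice in each region. Between the regions Camk4 and Prkacb, a Ca2+-dependent kinase and a catalytic subunit of protein kinase A, were lower in the hippocampus by 0.81 and 0.69 (adjusted p by limma = 5.61e-07 and 1.41e-07), as were Rps6ka5, Mef2c and Hdac4, while Mef2a, Mef2d and Elk1 were higher. Adcy1 was also called higher, and its mean was 9.29 in the hippocampus against 8.21 in the amygdala of WT mice but 7.72 against 7.65 in DKO mice, where it is disrupted.

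Of 12 partners and coregulators 11 were measured. None was called in time. At 1 hr 8 lay above 0, with a median of 0.09 beside 0.05 over clusters with a mean above the median. They were led by Rcor1, a corepressor recruited by Nr4a2 in mouse glia, at 0.21 (adjusted p by limma = 0.475), and the coactivator gene Ncoa3 at 0.17 (adjusted p by limma = 0.415). The retinoid X receptor genes differed between regions, Rxrg being lower in the hippocampus by 1.25 (standard error 0.087, adjusted p by limma = 3.68e-08) and Rxra by 0.20 (adjusted p by limma = 0.00829). The coactivator genes Ncoa3 and Ncoa1 were higher there by 0.28 and 0.22.

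Genes described as targets were read last. All 12 chaperone genes of the endoplasmic reticulum, which have been linked to the family in mouse hippocampus, were measured. They lay above 0 at 1 hr against the other times, with a median of 0.13 and none called. The median was -0.01 over all clusters and 0.05 over clusters with a mean above the median. Largest were Pdia4 at 0.23 (adjusted p by limma = 0.41) and Pdia3 at 0.21 (adjusted p by limma = 0.472). Against baseline the 1 hr median was only 0.06, with 11 of the 12 above 0. At 0 hr 1 of the 12 lay above baseline, at 48 hr 0 (median -0.13) and at 1 wk 3. The second cluster of Pdia4 differed by only 0.03. The 7 dopaminergic genes, targets of Nr4a2 in midbrain neurons, had 3 genes above 0 at 1 hr, a median of -0.04 and no call. Between the regions Aldh1a1, an enzyme of retinoic acid synthesis, was higher in the hippocampus by 1.61, and Vip, a neuropeptide gene, and Ddc, the decarboxylase that makes dopamine, were lower there by 0.66 and 0.62.

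The members moved together across arrays as follows. With the mean of each region and genotype subtracted, Nr4a1 and Nr4a2 correlated at 0.65, Nr4a2 and Nr4a3 at 0.62 and Nr4a1 and Nr4a3 at 0.57 over the 20 arrays, which share array level and the time points. By the same measure, among the clusters with 1 symbol and a mean above the median, the 5 genes most like Nr4a2 were H2aw, a histone H2A gene, at 0.92, Lrrc8c, a subunit of volume-regulated anion channels, at 0.90, and Dio2, the deiodinase that activates thyroid hormone, Nup50, a nucleoporin, and Bhlhe40, a transcriptional repressor, at 0.86, 0.86 and 0.85. Those most like Nr4a1 were Snapc3, a subunit of a complex needed to transcribe small nuclear RNA genes, Fam234b, Tmc7, DQ267102 and Dedd2, at 0.86 to 0.89. Those most like Nr4a3 were Ccdc117, Zfp329, Rgs14, a regulator of G protein signalling, Morc2a and Cops8, a subunit of the COP9 signalosome, at 0.85 to 0.87. With no mean subtracted 1 of the 5 genes of Nr4a2, Lrrc8c, was among the first 5, as were Snapc3 and Fam234b for Nr4a1 and Ccdc117 for Nr4a3.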

How the data were processed

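RNA of micropunches was hybridized to 20 Affymetrix Mouse Gene 1.0 ST arrays. Per the labels and the methods, the authors scanned the arrays with the GeneChip Command Console and then applied RMA (background correction, normalization and summary per cluster) with Expression Console software, its version and the annotation build being not given in the sources used here. The deposited values are on a log2 scale and already normalized across arrays, so that a shift of a whole array is partly removed before any comparison. No cluster was filtered and no array left out.

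Linear models over all 28853 transcript clusters used R 4.3.3 and limma 3.58.1, with moderated variances. Genotype was tested within a region with the 5 time points as replicates, region with genotype and time as a block, and time with region and genotype as groups, over all 4 groups and within each region. The contrasts of 1 hr against the other times used the same model as time. Differences between genotypes or regions in a change came from a model with added terms for time by genotype or time by region. There the regions served as replicates for a difference between genotypes, and the genotypes for a difference between regions. The smallest two-sided p that the exact permutation test allows is 0.00794 for genotype and 0.00195 for region.

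The genes named are the members, for each the 5 genes of highest correlation, and list genes that passed (at most 5 per direction) or, where none did, the 2 of largest change. Tiparp, Homer1, Fos, Arc and Dusp1 were named after their values were seen. The members, gene lists and contrasts were chosen with earlier results of these data known. The alternatives were a further quantile normalization, median centring, a filter above the median level, robust fitting with a variance trend, array weights, other references, samples and blocks, the study's own genotype test, and each array left out. Leaving out both 48 hr DKO arrays was added after the data were seen. The fits were tested on simulated data. Gene symbols came from the platform annotation, and promoter windows, matched by symbol for 3 of 3 genes, from RefSeq (GRCm38.p6). Python 3.11.15 with pandas 2.3.3 served for counts and plots. Protein sequences, RT-PCR, behaviour and AC8 rescue mice were not analysed here.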

Additional observations from a re-analysis of the deposited data

Results flagged for a closer look

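One value of the family stood apart from the other arrays of its group. Nr4a2 at baseline in the WT hippocampus was 8.15, the lowest of 5 arrays, and its gap to the next made up 0.759 of the range, above Dixon's limit at 95%. It was 1 of 27 sets of arrays examined, where chance flags about 1 in 20. The change of Nr4a2 from baseline in this group rests on that array.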

How the results depend on the processing

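Among the tested differences of the members under other settings, 967 kept their direction and their side of the limit, 59 changed sign without passing in either case, and 4 newly passed. Newly past the limit was Nr4a2 at 1 hr against the other times with array weights (0.477, adjusted p by limma = 0.0431), a setting that called 60 clusters beside 5 in the main fit. Also newly past it was Nr4a1 between the regions (-0.133, adjusted p by limma = 0.0408) without either or both 48 hr DKO arrays, which, with pairs as blocks, gave the same value. The exact permutation p of the latter, 0.00977, is unadjusted and was not held to the adjusted limit. Without 1 array, Nr4a2 at 1 hr against the other times ran from 0.347 to 0.568, with a lowest adjusted p by limma of 0.073. With a further quantile normalization the region difference of the genotype effect was -0.148 for Nr4a2, the genotype difference at 1 hr against the other times -0.006 for Nr4a3, the genotype effect in the amygdala 0.012 for Nr4a2, the change at 0 hr -0.016 for Nr4a2 and that at 48 hr 0.012 for Nr4a3. With arrays centred on the median, these differences were 0.001 for Nr4a3 between regions in genotype effect, -0.042 for Nr4a3 between genotypes at 1 hr and -0.02 for Nr4a2 at 0 hr. With array weights they were -0.126 for Nr4a2 between regions in genotype effect, -0.003 for Nr4a3 between regions, 0.074 for Nr4a2 between genotypes in the amygdala, -0.002 and 0.005 for Nr4a2 at 0 hr and 1 wk, and -0.007 for Nr4a1 at 48 hr. With 0 hr as the reference Nr4a3 was at -0.019 at 1 hr and -0.14 at 1 wk, and Nr4a1 at -0.132 at 48 hr. Without both 48 hr DKO arrays the genotype effect was 0.024 for Nr4a3 in the amygdala and 0.0 for Nr4a2 in the hippocampus, and the 48 hr change 0.095 for Nr4a2 and 0.086 for Nr4a3. The cause of these changes was not tested.

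Without 1 array, the region difference of the genotype effect ran from -0.098 to 0.165 for Nr4a2, and that between the regions from -0.133 to -0.095 for Nr4a1 and from -0.012 to 0.034 for Nr4a3. The region difference at 1 hr against the other times ran from -0.184 to 0.16 for Nr4a1 and from -0.492 to -0.055 for Nr4a2, and the genotype difference at 48 hr from -0.655 to -0.176 for Nr4a2. The genotype difference at 1 hr against the other times ran from -0.019 to 0.128 for Nr4a3, and the genotype effect from -0.085 to 0.024 for Nr4a3 in the amygdala and from -0.199 to 0.0 for Nr4a2 in the hippocampus. The change at 0 hr ran from -0.079 to 0.102 and that at 1 wk from -0.12 to 0.061 for Nr4a2, and that at 48 hr from -0.033 to 0.086 for Nr4a1 and from -0.081 to 0.028 for Nr4a3. Over all clusters, the number called ran from 1 to 60 (array weights) beside 5 at 1 hr against the other times, from 0 to 47 (array weights) beside 7 at 1 hr against baseline, and from 25 to 73 (without the WT 1 hr array) beside 34 for genotype in the hippocampus. The labels give no replicate numbers, so arrays were paired only by genotype and time (between the regions) or by time (between genotypes). Time points as blocks changed no call of the members. Over all clusters they gave 24 calls beside 28 for genotype in the amygdala and 34 beside 34 in the hippocampus. With 1 array per region, genotype and time, no change within a group could be tested.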
